A study of Homo sapiens with 36 samples.

Results

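The genes described here are 10 transcription factors and cofactors of blood cell development, taken by symbol from the 57500 genes in the count files: RUNX1, TAL1, ETS1, ETS2, LMO2, LYL1, SPI1, FLI1, MEIS1 and MYB. They were followed across all 12 conditions of a study of buffered hypercapnia (raised CO2 at a held pH) in THP-1 cells, a human monocytic leukaemia line. The list holds RUNX1, TAL1, ETS1 and LMO2, which the study put forward as candidate regulators of genes that respond to CO2. All 36 libraries carried a short hairpin RNA delivered by lentivirus: a non-targeting control (shNT), one against NR4A2 (shNR4A2) or one against NR4A3 (shNR4A3), each as 1 transduced line. Cells of each line were kept for 4 h in pre-equilibrated, buffered medium at 5% or 10% CO2, either basal or stimulated with lipopolysaccharide (LPS, 2.5 µg/mL) for the final 2 h, in 3 replicates per condition. Since there was 1 line per hairpin, the knockdown and any other difference between the lines cannot be told apart. The study describes its RNA-seq as drawn from individual experiments, while the labels do not say which libraries came from the same one. In bulk RNA, fewer cells that express a gene and less RNA of it per cell cannot be told apart.

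Blood cell identity is set by a small network of DNA-binding factors that bind together at shared enhancers. SPI1 (PU.1), ETS1, ETS2 and FLI1 belong to the ETS family, whose DNA-binding domain recognises a GGAA core. RUNX1 is the DNA-binding subunit of core-binding factor, which it forms with CBFB. TAL1 and LYL1 are related basic helix-loop-helix proteins that bind E-boxes as partners of E proteins, and LMO2 is the LIM-domain adaptor that joins them to LDB1 and GATA factors. MYB keeps progenitors dividing and is lowered as myeloid cells mature, and MEIS1 is the homeodomain cofactor of HOXA proteins in many leukaemias with a KMT2A fusion. THP-1 carries such a fusion, with MLLT3 as the partner.

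Each library held 16171161 to 23929138 counts, with a median of 19639071. All 10 monocytic markers had a median of at least 1 TPM (transcripts scaled to a common total) over the libraries, and their summed level was 2097 to 5993 TPM. None of the 4 T cell, 6 erythroid, 3 epithelial and 3 fibroblast markers reached that median, and their highest summed levels were 1.89, 1.18, 0.947 and 1.01 TPM. Of 3 B cell markers 2 passed it, and of 4 megakaryocytic markers 3 did, at summed levels of 1.99 to 6.77 TPM and 3.87 to 15.8 TPM. NR4A2 was lower in shNR4A2 than in shNT cells in all 4 conditions (log2 fold change -1.67 to -0.91, each with an adjusted p under 0.05). NR4A3 was lower in shNR4A3 cells at 5% CO2, by -2.47 in basal and -0.82 in LPS-stimulated cells, and at 10% CO2 with LPS, by -1.11. In basal shNR4A3 cells at 10% CO2 the difference was -0.39 with an adjusted p of 0.736, so the knockdown of NR4A3 was not detected there. Both basal differences rest on few counts of NR4A3. At 5% CO2 the libraries held 17 to 21 counts in shNT and 1 to 5 in shNR4A3 cells. At 10% they held 6 to 14 and 6 to 8.

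The sequences just upstream of 4 of these genes are shown because ETS2 rose and MYB fell with LPS in every comparison, and because RUNX1 and TAL1 were among the candidates the study named. RefSeq gave promoters (build GRCh38.p14) for 6 of the 10 genes in 8 entries, and ETS1, LMO2, SPI1 and FLI1 had no entry. The entries for LYL1 and MEIS1 and the second entries for ETS2 and TAL1 are not printed, those of LYL1 and ETS2 because they overlap an exon. Each line gives the 250 bases before the annotated start, 5′ to 3′ on the strand of the gene. Capitals mark matches on either strand to AP-1 (TGANTCA), CRE (TGACGTCA), the CCAAT box, whose name gives its letters, the GATA site (AGATAA), a long ETS site (CCGGAAGT), NBRE, the site bound by single NR4A receptors (AAAGGTCA), the RUNX core (TGNGGT) and the kappaB site.
ETS2 (chr21:38804933-38805182, plus strand): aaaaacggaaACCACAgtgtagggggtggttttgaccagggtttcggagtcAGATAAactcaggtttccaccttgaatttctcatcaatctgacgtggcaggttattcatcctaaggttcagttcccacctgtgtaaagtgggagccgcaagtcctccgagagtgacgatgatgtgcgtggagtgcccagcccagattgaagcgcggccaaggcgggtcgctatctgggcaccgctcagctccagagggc
MYB (chr6:135181058-135181307, plus strand): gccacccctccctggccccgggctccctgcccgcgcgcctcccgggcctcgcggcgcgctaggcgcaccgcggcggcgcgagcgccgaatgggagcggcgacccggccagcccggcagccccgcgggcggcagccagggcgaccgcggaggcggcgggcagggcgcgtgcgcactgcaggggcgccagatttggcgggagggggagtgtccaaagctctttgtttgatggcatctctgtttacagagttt
RUNX1 (chr21:34888700-34888949, minus strand): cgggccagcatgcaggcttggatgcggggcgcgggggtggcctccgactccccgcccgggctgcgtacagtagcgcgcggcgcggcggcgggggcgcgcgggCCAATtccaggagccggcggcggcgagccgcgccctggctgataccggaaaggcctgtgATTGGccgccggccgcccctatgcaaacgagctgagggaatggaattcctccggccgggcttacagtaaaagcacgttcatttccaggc
TAL1 (chr1:47232336-47232585, minus strand): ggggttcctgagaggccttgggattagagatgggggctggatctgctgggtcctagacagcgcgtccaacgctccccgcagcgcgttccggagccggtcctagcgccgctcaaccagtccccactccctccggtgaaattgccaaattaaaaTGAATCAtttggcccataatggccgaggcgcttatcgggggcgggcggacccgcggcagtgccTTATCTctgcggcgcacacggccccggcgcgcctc
The ETS2 window held a RUNX core, on the opposite strand, 240 bases before the start and a GATA match at 199 bases. The RUNX1 window, which lies inside the span the files give for this gene, held 2 CCAAT boxes, at 148 bases and, on the opposite strand, at 89 bases. The TAL1 window shown held an AP-1 match at 98 bases, overlapping the E-box (CANNTG) that begins at 93 bases, and a GATA match on the opposite strand at 35 bases. The second TAL1 entry (chr1:47231716-47231965) held 5 RUNX core matches and no AP-1, E-box or GATA match, and the second ETS2 entry held none of the motifs marked here. No capital stands in the MYB window, which had a GC content of 75.6% and 1 Sp1 match (GGGCGG). GC content was 54.4% in the ETS2, 71.2% in the RUNX1 and 64.8% in the TAL1 window, against a median of 58.0% over all promoters. No NBRE, CRE or kappaB match was present in these 4 windows. Of 35116 promoters of this length, 6.57% held AP-1, 1.65% CRE, 32.0% CCAAT, 9.17% AGATAA, 3.42% the long ETS site, 1.05% NBRE, 37.7% the RUNX core, 61.8% an E-box, 42.6% Sp1 and 9.96% kappaB. The bare ETS core GGAA was left in lower case, since 92.7% of promoters held it. It occurred 3 times in the ETS2, 6 times in the RUNX1, 2 times in the TAL1 and in no position of the MYB window. These matches are letters in a window and say nothing of binding.

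In the coordinates of the files (GRCh38), RUNX1 (ENSG00000159216) spans chr21:34787801-36004667 on the minus strand and ETS2 (ENSG00000157557) chr21:38805307-38824955 on the plus strand. Chromosome 11 holds ETS1 (ENSG00000134954, chr11:128458761-128587558, minus), FLI1 (ENSG00000151702, chr11:128686535-128813267, plus), SPI1 (ENSG00000066336, chr11:47354860-47378576, minus) and LMO2 (ENSG00000135363, chr11:33858576-33892289, minus). TAL1 (ENSG00000162367) lies at chr1:47216290-47232220 on the minus strand, LYL1 (ENSG00000104903) at chr19:13099033-13103161 on the minus strand, MEIS1 (ENSG00000143995) at chr2:66433452-66573869 on the plus strand and MYB (ENSG00000118513) at chr6:135181315-135219173 on the plus strand. The counts cover whole genes, so isoforms of RUNX1, ETS1, TAL1 or FLI1 were not separated.

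SPI1 was by far the most abundant of the 10 transcripts, and TAL1 and MEIS1 were close to undetected. Levels between genes are given as RPKM, counts per kilobase of gene and library size, with library sizes scaled by TMM. Over the 36 libraries the mean ± SD was 215 ± 69.4 RPKM for SPI1, 47.8 ± 29.7 for MYB, 45.8 ± 19.6 for LMO2 and 25.7 ± 16.2 for ETS2. It was 16.8 ± 4.27 RPKM for FLI1, 13.9 ± 2.01 for RUNX1, 12.7 ± 2.91 for ETS1 and 7.64 ± 5.06 for LYL1. The SPI1 range, 125 to 362 RPKM, lay above every library of the other genes, whereas the ranges of neighbours in this order overlapped at each step from MYB down to LYL1. By mean TPM, SPI1 ranked 153 and LYL1 5183 among the 57500 genes.

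TAL1, the haematopoietic master regulator that LMO2 binds, had 0 to 12 counts per library, at most 0.110 RPKM. Its counts summed to 45 over the 12 shNT libraries, 58 over the 12 shNR4A2 libraries and 76 over the 12 shNR4A3 libraries, from totals of 239513372, 240504135 and 228373883 counts. Only 3 libraries reached 10 counts of TAL1, all of them shNR4A3. TAL1 passed the filter on low counts through those libraries, so a higher fitted level in shNR4A3 cells was built into its being tested and is not read as a result. MEIS1 had 0 to 5 counts per library and was at 0 in 14 of 36 libraries. It did not pass the filter and was not tested. The tests below therefore cover 9 of the 10 genes.

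**Figure D1:**
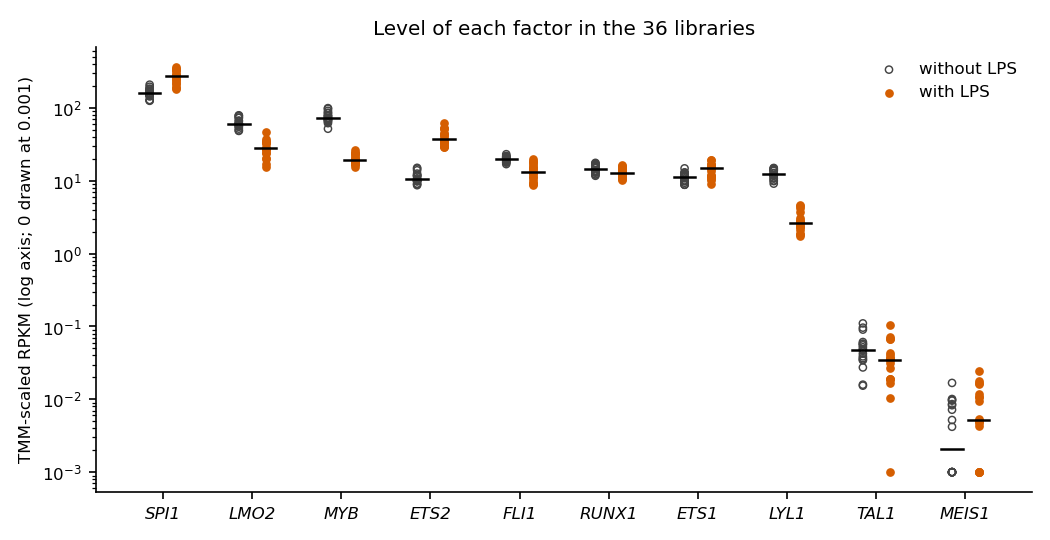
Level of the 10 genes in each of the 36 libraries, as TMM-scaled RPKM on a log axis, with open circles for the 18 basal and filled circles for the 18 LPS-stimulated libraries, bars at the median of each, and libraries at 0 drawn at 0.001. SPI1 stands highest at 125 to 362 RPKM, LYL1, MYB and ETS2 show separate basal and LPS-stimulated clouds, and TAL1 stays at or below 0.110 RPKM.

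The order of the factors differed between basal and LPS-stimulated cells. Without LPS the median over 18 libraries was 158 RPKM for SPI1, 73.1 for MYB, 60.5 for LMO2, 20.0 for FLI1, 14.4 for RUNX1, 12.25 for LYL1, 11.3 for ETS1 and 10.6 for ETS2. With LPS it was 272 RPKM for SPI1, 36.9 for ETS2, 27.95 for LMO2, 19.45 for MYB, 14.97 for ETS1, 13.2 for FLI1, 13.0 for RUNX1 and 2.655 for LYL1. ETS2 thus moved from the lowest of these 8 to the place next to SPI1. LYL1 varied most between conditions, with a highest condition mean 6.41 times the lowest, followed by MYB at 5.56, ETS2 at 5.01 and LMO2 at 4.38. The ratio was 2.44 for SPI1, 2.33 for FLI1, 2.05 for ETS1 and 1.45 for RUNX1.

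LPS was compared with no LPS within each line and CO2 level, to see which of the factors respond to the stimulus at all. ETS2 and SPI1 rose with LPS in all 6 comparisons, and MYB, LYL1 and LMO2 fell in all 6. ETS1 rose at 10% CO2 in each line, and RUNX1 fell at 5% CO2 in each line. In all, 41 of 54 pairs of gene and comparison passed an adjusted p of 0.05 (termed called below), 16 up and 25 down. Of the 9 genes tested, 6 were called in shNT cells at 5% CO2 and 7 at 10%, beside 22.9% and 31.2% of all 17720 genes tested. In shNR4A2 cells 6 and 7 were called, beside 18.2% and 35.0% of all genes, and in shNR4A3 cells 7 and 8, beside 25.3% and 42.1%. The median log2 fold change of the 9 genes was -0.94 to 0.05 in these comparisons, against -0.01 to 0.00 over all genes. Scaling by library size alone would shift the median of all genes to between -0.25 and -0.18, so every value here is relative to the bulk of genes.

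ETS2, an ETS activator induced by growth and inflammatory signals, gave the largest rise. In shNT cells at 5% CO2 its levels were 11.7, 9.93 and 8.96 RPKM in basal replicates 1, 2 and 3 and 50.7, 37.3 and 29.1 RPKM with LPS. Over all lines the basal libraries ran from 8.70 to 15.1 RPKM and the LPS-stimulated ones from 29.0 to 61.5 RPKM. The 2 sets of 18 libraries did not overlap, and replicate 1 was the highest of the 3 at 5% CO2 with LPS in each line. The log2 fold change lay between 1.77 and 1.94 in the 6 comparisons (SE 0.09 to 0.21, adjusted p at most 0.00049), 3.41- to 3.85-fold.

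SPI1, the factor that drives the monocytic and granulocytic programme, rose less. In shNT cells at 5% CO2 it was at 155, 151 and 129 RPKM without LPS and at 251, 194 and 215 RPKM with it. In shNR4A3 cells at 10% CO2 it was at 184, 151 and 168 RPKM without LPS and 339, 301 and 339 RPKM with it, the condition with the highest mean (326 ± 21.7 RPKM). The basal and stimulated libraries did not overlap within any of the 6 comparisons. Its log2 fold change was 0.56 to 0.98 (SE 0.08 to 0.14, adjusted p at most 0.00198).

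MYB fell about as far as ETS2 rose. In shNT cells at 5% CO2 it was at 70.7, 68.97 and 77.7 RPKM without LPS and at 19.3, 26.5 and 21.3 RPKM with it. Over all lines it ran from 51.9 to 99.5 RPKM in basal and from 15.3 to 26.5 RPKM in stimulated libraries, with no overlap. The log2 fold change was -2.17 to -1.67 (SE 0.08 to 0.16, adjusted p at most 3.34e-06), 3.18- to 4.50-fold lower.

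LYL1, the close relative of TAL1, had the steepest fall of the set. It was at 11.9, 13.9 and 10.7 RPKM in basal shNT cells at 5% CO2 and at 3.75, 4.24 and 2.70 RPKM with LPS. Every basal library of the 3 lines, from 9.15 to 15.01 RPKM, was above every stimulated one, from 1.74 to 4.60 RPKM. The log2 fold change was -2.52 to -1.76 (SE 0.14 to 0.24, adjusted p at most 0.00022), 3.39- to 5.75-fold lower. LMO2, its adaptor partner, fell by less, with log2 fold changes of -1.61 to -0.85 (SE 0.08 to 0.17, adjusted p at most 0.000468). LMO2 was at 61.0, 65.8 and 56.1 RPKM in basal shNT cells at 5% CO2 and at 34.5, 37.8 and 28.4 RPKM with LPS, and 48.4 to 79.3 RPKM against 15.6 to 47.4 RPKM over all lines. The LPS calls of ETS2, SPI1, MYB, LYL1 and LMO2 held when any 1 library was left out.

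FLI1, an ETS factor of megakaryocytes and stem cells, passed the test in 4 of 6 comparisons and was lower with LPS in all 6. It was called at 10% CO2 in shNT (log2 fold change -0.50 ± 0.10 SE), shNR4A2 (-0.94 ± 0.10) and shNR4A3 cells (-0.98 ± 0.09), and at 5% CO2 in shNR4A3 cells (-0.50 ± 0.11). At 5% CO2 it was -0.24 ± 0.09 in shNT cells (adjusted p = 0.0554) and -0.38 ± 0.15 in shNR4A2 cells (adjusted p = 0.0984). With the replicate number as a block, the latter was -0.41 with an adjusted p of 0.0199, in a comparison whose numbers paired the libraries.

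ETS1 and RUNX1 were called mainly at 1 of the CO2 levels in which LPS was given. ETS1, an ETS activator best known from lymphocytes, had log2 fold changes of 0.00, 0.14 and 0.20 with LPS at 5% CO2 in shNT, shNR4A2 and shNR4A3 cells, none called. At 10% CO2 they were 0.33 ± 0.10, 0.70 ± 0.10 and 0.69 ± 0.07, all called (adjusted p = 0.015, 4.12e-05 and 3.45e-06). The shNT call ended without 10% CO2 replicate 2 (adjusted p = 0.0689) or without 10% CO2 + LPS replicate 3 (adjusted p = 0.0524). By TPM, without TMM scaling, ETS1 in shNT cells at 10% CO2 was 45.7 to 55.2 without LPS and 48.5 to 54.4 with it. These ranges overlapped. Those of shNR4A2 (39.4 to 49.2 against 50.4 to 63.0) and shNR4A3 cells (35.3 to 37.0 against 47.1 to 49.3) did not. RUNX1 had log2 fold changes with LPS at 5% CO2 of -0.30 ± 0.09, -0.46 ± 0.13 and -0.37 ± 0.11 in shNT, shNR4A2 and shNR4A3 cells (adjusted p = 0.0205, 0.022 and 0.032). At 10% CO2 it was 0.09 and -0.05 in shNT and shNR4A2 cells, not called, and 0.23 ± 0.08 in shNR4A3 cells (adjusted p = 0.0377). This rise in shNR4A3 cells turned to -0.02 when libraries were scaled by size alone, so its direction depends on the scaling. The RUNX1 calls at 5% CO2 ended without replicate 1 or 3 of either condition in shNT cells (adjusted p 0.0527 to 0.108). They ended in shNR4A2 cells without basal replicate 1 or 2 or LPS replicate 1 or 3 (0.0624 to 0.12), and in shNR4A3 cells without basal replicate 2 or LPS replicate 1 or 3 (0.0964 to 0.128). The call at 10% CO2 ended without any of its 6 libraries except LPS replicate 1 (0.0714 to 0.204).

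**Figure D2:**
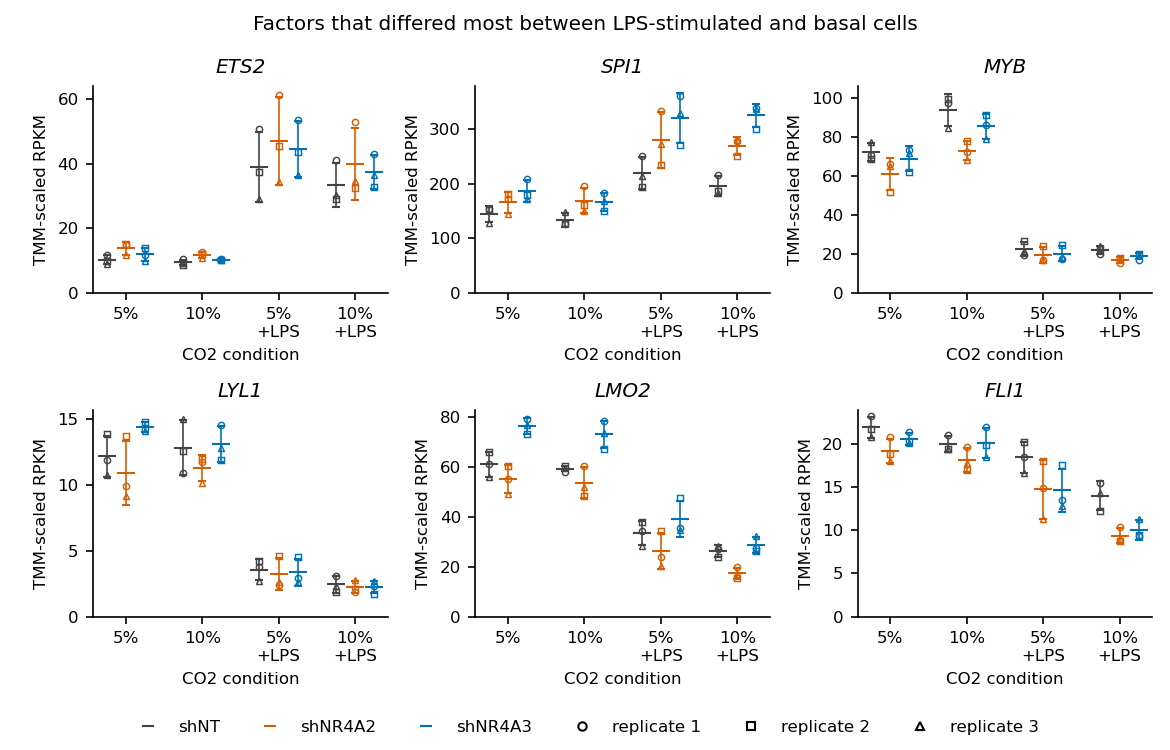
TMM-scaled RPKM of ETS2, SPI1, MYB, LYL1, LMO2 and FLI1 in each condition (x axis: CO2 level without and with LPS), with 1 symbol per library, lines in colour, and the mean and SD of 3 libraries as bars. ETS2 and SPI1 sit higher and MYB, LYL1 and LMO2 lower in every LPS-stimulated condition, and FLI1 is lowest at 10% CO2 with LPS, at 9.39 ± 0.876 RPKM in shNR4A2 cells.

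The response to 10% CO2 within each line, the comparison the study was built on, was far smaller for these genes than the response to LPS, and what there was lay mostly in LPS-stimulated cells. ETS1 was higher and FLI1 lower at 10% CO2 with LPS, with values of one sign in all 3 lines. Of 54 pairs of gene and comparison, 3 were called by edgeR, 17 were under an unadjusted p of 0.05, and DESeq2 called 11. In basal cells none of the 9 genes was called, beside 0.615% of all genes in shNT, 0.0113% in shNR4A2 and 1.13% in shNR4A3 cells. In the same order, 1, 1 and 2 of the 9 were under an unadjusted p of 0.05. Of all 17720 genes, 2646, 1430 and 2957 were. DESeq2 called 1, 0 and 1 of the 9, beside 358, 43 and 550 genes in all. With LPS, 2 were called in shNT cells, none in shNR4A2 cells and 1 in shNR4A3 cells, beside 8.19%, 0.198% and 2.15% of all genes. With LPS, 5, 3 and 5 of the 9 genes were under an unadjusted p of 0.05. Of all 17720 genes, 4437, 2896 and 3377 were. DESeq2 called 3 of the 9 in each line, beside 1801, 600 and 885 genes in all. The median log2 fold change of the 9 genes ran from -0.25 to 0.02, against -0.01 to 0.00 over all genes.

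ETS1 was the clearest. In LPS-stimulated shNT cells it was at 11.3, 11.7 and 13.6 RPKM at 5% CO2 and at 16.7, 16.5 and 16.5 RPKM at 10%. In shNR4A2 cells it was at 10.5, 11.95 and 15.2 RPKM against 17.0, 19.1 and 19.3 RPKM, and in shNR4A3 cells at 10.4, 8.99 and 11.7 RPKM against 15.96, 15.03 and 14.9 RPKM. The groups did not overlap in any line, and replicate 3 was the highest at 5% CO2 with LPS in each. The log2 fold change was 0.45 ± 0.08 in shNT (adjusted p = 0.00856), 0.55 ± 0.13 in shNR4A2 (adjusted p = 0.0921) and 0.57 ± 0.10 in shNR4A3 cells (adjusted p = 0.0228). The shNR4A3 call ended without 10% CO2 + LPS replicate 1 or 2 (adjusted p 0.077 to 0.123). In basal cells ETS1 was at 12.5, 11.4 and 13.0 RPKM at 5% CO2 and 14.8, 12.9 and 12.1 RPKM at 10% in shNT cells. Basal shNR4A2 cells gave 11.7, 10.1 and 12.3 against 10.8, 12.3 and 11.3 RPKM, and basal shNR4A3 cells 8.84, 9.41 and 8.82 against 10.0, 9.89 and 8.86 RPKM. These groups overlapped in every line, at log2 fold changes of 0.02 to 0.11.

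FLI1, which shares this stretch of chromosome 11 with ETS1, went the other way with LPS. It was at 18.5, 20.2 and 16.6 RPKM at 5% and 15.5, 12.2 and 14.4 RPKM at 10% CO2 in shNT cells. In shNR4A2 cells it was at 14.9, 18.01 and 11.3 against 10.4, 8.78 and 8.99 RPKM, and in shNR4A3 cells at 13.5, 17.5 and 12.8 against 9.31, 9.45 and 11.4 RPKM. No group overlapped with its counterpart, though the 5% libraries were spread, with replicate 2 the highest of the 3 in each line. The log2 fold change was -0.39 ± 0.10 in shNT (adjusted p = 0.0277), -0.65 ± 0.15 in shNR4A2 (adjusted p = 0.0949) and -0.54 ± 0.12 in shNR4A3 cells (adjusted p = 0.0542). The shNT call ended without 5% CO2 + LPS replicate 1 or 2 or without 10% CO2 + LPS replicate 2 or 3 (adjusted p 0.0743 to 0.116). In basal cells FLI1 differed by -0.13 to -0.02 on the log2 scale.

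None of the other genes was called for CO2 by edgeR in a single line. LMO2 with LPS gave -0.34 ± 0.10, -0.59 ± 0.18 and -0.44 ± 0.13 in shNT, shNR4A2 and shNR4A3 cells (adjusted p = 0.0653, 0.173 and 0.096), and DESeq2 called it in each. MYB without LPS gave 0.38 ± 0.09, 0.26 ± 0.12 and 0.32 ± 0.08 (adjusted p = 0.082, 0.608 and 0.0648). Basal MYB was at 70.7, 68.97 and 77.7 RPKM at 5% and 97.5, 99.5 and 84.5 RPKM at 10% CO2 in shNT cells, which did not overlap. The log2 fold changes of LYL1 with LPS were -0.58 to -0.52, with standard errors of 0.20 to 0.26. RUNX1 gave -0.27 to -0.16 in basal and 0.23 to 0.29 in LPS-stimulated cells. SPI1 and ETS2 gave -0.16 to 0.03 and -0.25 to -0.11.

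**Figure D3:**
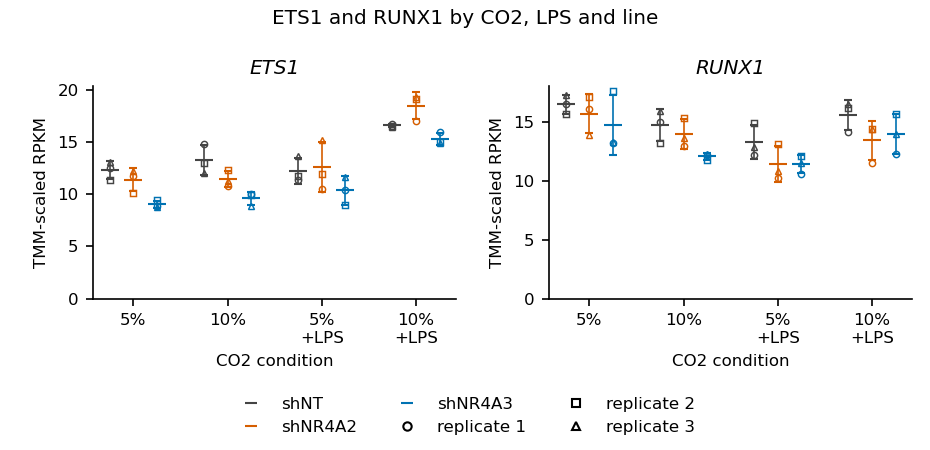
TMM-scaled RPKM of ETS1 and RUNX1 in each condition, with 1 symbol per library (circle, square and triangle for replicates 1, 2 and 3), lines in colour, and the mean and SD of 3 libraries as bars. ETS1 is highest at 10% CO2 with LPS in each line (14.9 to 19.3 RPKM over 9 libraries). RUNX1 runs from 10.3 to 17.6 RPKM over all libraries. Its basal and LPS-stimulated libraries of one line do not overlap at 5% CO2, and meet or overlap at 10%.

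Whether the response to CO2 differed between basal and LPS-stimulated cells was tested as an interaction in each line. None of the 9 genes was called by edgeR or DESeq2, beside 0.0226% of all genes in shNT cells and 0.0% in both other lines by edgeR. In each line 5 of the 9 genes had an unadjusted p under 0.05. Of all 17720 genes, 1024, 904 and 995 were under it in shNT, shNR4A2 and shNR4A3 cells. The difference of the responses, with minus without LPS, was of one sign in the 3 lines for several genes. For ETS1 it was 0.33 ± 0.13, 0.54 ± 0.18 and 0.47 ± 0.13 on the log2 scale in shNT, shNR4A2 and shNR4A3 cells. For RUNX1 it was 0.39 ± 0.13, 0.40 ± 0.17 and 0.57 ± 0.15, for FLI1 -0.26 ± 0.13, -0.57 ± 0.19 and -0.51 ± 0.15, for LMO2 -0.30 ± 0.14, -0.56 ± 0.22 and -0.38 ± 0.15, and for MYB -0.40 ± 0.15, -0.45 ± 0.19 and -0.40 ± 0.16.

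After these values had been seen, the 3 lines were averaged in 1 fit of all 36 libraries. The difference then passed for 5 of the 9 genes, beside 2.0% of all genes. It was 0.46 ± 0.09 for RUNX1 (adjusted p = 0.00648), 0.45 ± 0.09 for ETS1 (0.00456), -0.44 ± 0.10 for FLI1 (0.0144), -0.42 ± 0.11 for MYB (0.0314) and -0.41 ± 0.11 for LMO2 (0.0497). It was -0.54 ± 0.18 for LYL1 (0.129), 0.01 ± 0.10 for SPI1 and -0.05 ± 0.17 for ETS2. Without LPS the averaged CO2 effect was called for MYB (0.31 ± 0.08) and RUNX1 (-0.21 ± 0.07), beside 17.4% of all genes. With LPS it was called for ETS1 (0.52 ± 0.06), RUNX1 (0.25 ± 0.07), FLI1 (-0.53 ± 0.07), LMO2 (-0.46 ± 0.08) and LYL1 (-0.55 ± 0.14), beside 29.3% of all genes. RUNX1 was the gene called in both states, with opposite signs.

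The averaged differences rested on the replicates. Replicate 2 at 5% CO2 with LPS was the highest of the 3 in each line for RUNX1, LMO2, LYL1, FLI1 and MYB, whereas replicate 1 was the highest for ETS2 and SPI1 and replicate 3 for ETS1. Leaving replicate 2 out of every condition brought the difference to -0.27 for FLI1, -0.25 for LMO2 and -0.17 for MYB, and left 0.45 for ETS1 and 0.42 for RUNX1. No gene was then called (adjusted p 0.0764 to 0.694 for these 5), nor without replicate 1 (0.0529 to 0.279). Without replicate 3, ETS1, FLI1, LMO2 and MYB were called and RUNX1 was not (0.0751). The part of this shared pattern of replicate 2 in the differences was not tested further.

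**Figure D4:**
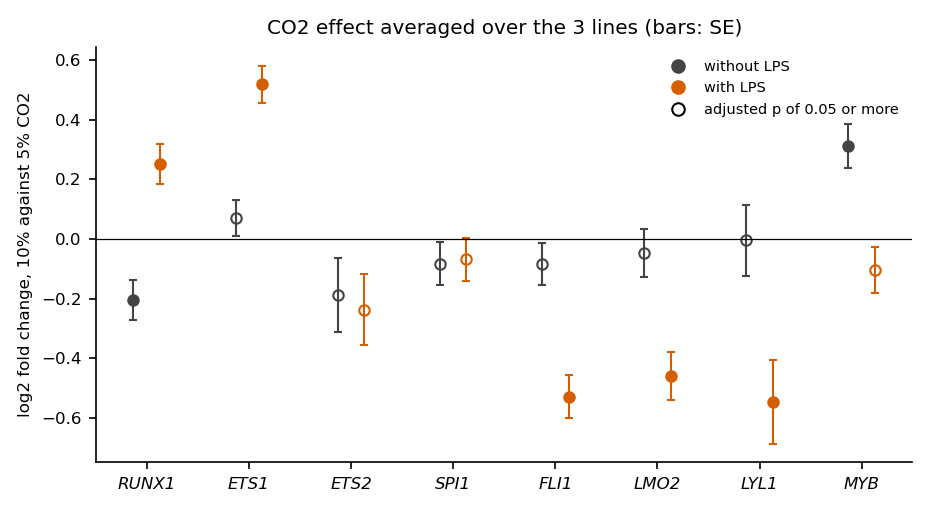
Log2 fold change at 10% against 5% CO2, averaged over the 3 lines in 1 fit of 36 libraries, for 8 genes without and with LPS (points: estimate, bars: standard error, open points: adjusted p of 0.05 or more). ETS1 moves from 0.07 without LPS to 0.52 with it, RUNX1 from -0.21 to 0.25 and FLI1 from -0.08 to -0.53.

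Whether the knockdowns altered the responses was tested as the response in a knockdown line minus that in shNT cells. For CO2, 0 of 36 pairs of gene and comparison were called by edgeR or DESeq2, and 1 (TAL1) had an unadjusted p under 0.05. No gene of the 17720 was called in any of the 4 comparisons (0.0%), and 192 to 457 of them had an unadjusted p under 0.05. The standard errors of these differences were 0.12 to 0.40 for the 8 genes other than TAL1, so differences of that size were not detectable with 3 replicates. For LPS, 0 of 36 pairs were called by either tool. By edgeR this stood beside 0.0% and 0.0451% of all genes for shNR4A2 at 5% and 10% CO2 and 0.0% and 0.198% for shNR4A3. Of the pairs, 6 had an unadjusted p under 0.05, 3 for shNR4A2 and 3 for shNR4A3, all at 10% CO2. There 735 and 1391 of the 17720 genes were under it, and 393 and 854 at 5%. In shNR4A3 cells at 10% CO2, where the replicate numbers paired the libraries, the block brought 2 genes past the threshold, beside 1.03% of all genes. SPI1 then differed by 0.41 ± 0.10 (adjusted p = 0.0388, 0.349 without the block) and FLI1 by -0.49 ± 0.11 (adjusted p = 0.0304, 0.242 without the block).

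The levels themselves were compared between each knockdown line and shNT cells in the same condition. The shNT libraries serve both comparisons, so the 2 sets of values below are not independent of each other. SPI1 was higher in both knockdown lines, FLI1 was lower with LPS, MYB was lower in shNR4A2 cells, ETS1 was lower in basal shNR4A3 cells, and LMO2 was lower in shNR4A2 cells with LPS and higher in shNR4A3 cells, wherever these were called.

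In shNR4A2 cells 0, 1, 0 and 4 of the 9 genes were called in basal cells at 5% and 10% CO2 and in LPS-stimulated cells at 5% and 10% CO2, beside 5.69%, 7.95%, 6.21% and 18.9% of all genes. At 10% CO2 with LPS, LMO2 was at 19.9, 15.6 and 16.9 RPKM in shNR4A2 and 27.1, 23.8 and 28.5 RPKM in shNT cells (log2 fold change -0.61 ± 0.10, adjusted p = 0.00114). FLI1 was lower by -0.59 ± 0.10 (adjusted p = 0.00114) and MYB by -0.39 ± 0.09 (adjusted p = 0.0112), and SPI1 was higher by 0.46 ± 0.09 (adjusted p = 0.00266). Of the 9 genes, 5 did not overlap between the lines in this condition: these 4 and ETS1, which was not called. The share of all genes without overlap was not counted. MYB was also lower in basal cells at 10% CO2, at 72.6, 78.0 and 68.3 against 97.5, 99.5 and 84.5 RPKM (-0.37 ± 0.11, adjusted p = 0.0386). That call ended without shNT replicate 1 or 2 or shNR4A2 replicate 1 or 3 (adjusted p 0.0856 to 0.232), and the MYB call with LPS ended without shNT replicate 3 (0.0802). In the 2 conditions with none called, 2 and 1 genes were under an unadjusted p of 0.05, and DESeq2 called 1 and 0. Of all 17720 genes, 3551 and 3791 were under it, and DESeq2 called 1287 and 1382 genes in all.

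Replicates with one number moved together between the lines, and a block on the number raised the counts. In the 3 shNR4A2 comparisons where the numbers paired the libraries (all but basal cells at 10% CO2), 4, 6 and 7 of the 9 genes were called with the block in basal cells at 5% CO2 and in stimulated cells at 5% and 10%, beside 21.5%, 24.7% and 34.8% of all genes. The added calls ran from -0.37 to 0.43. At 5% CO2 they were ETS2 at 0.43 in basal and 0.27 in stimulated cells, SPI1 at 0.20 and 0.35, FLI1 at -0.19 and -0.34, and MYB at -0.25 and -0.22, with RUNX1 (-0.22) and LMO2 (-0.37) in stimulated cells alone. At 10% CO2 with LPS they were RUNX1 (-0.22), ETS1 (0.15) and ETS2 (0.23).

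In shNR4A3 cells 3, 2, 1 and 2 of the 9 genes were called in the same order of conditions, beside 6.19%, 6.85%, 5.41% and 14.5% of all genes. ETS1 was lower in basal cells, at 8.84, 9.41 and 8.82 against 12.5, 11.4 and 13.0 RPKM at 5% CO2 (-0.45 ± 0.09, adjusted p = 0.00641) and at 10.0, 9.89 and 8.86 against 14.8, 12.9 and 12.1 RPKM at 10% (-0.47 ± 0.10, adjusted p = 0.00618). With LPS the difference was -0.24 and -0.11 and not called. The call at 10% CO2 ended without shNR4A3 replicate 3 (adjusted p = 0.0543).

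LMO2 was higher in basal shNR4A3 cells, by 0.33 ± 0.09 at 5% and 0.30 ± 0.09 at 10% CO2 (adjusted p = 0.0348 and 0.045), at 79.3, 73.1 and 76.8 against 61.0, 65.8 and 56.1 RPKM at 5%. The first call ended without replicate 1 or 3 of either line (adjusted p 0.0969 to 0.152), and the second without any of its 6 libraries except shNT replicate 1 (0.0538 to 0.226). SPI1 was higher by 0.37 ± 0.10 in basal cells at 5% CO2, 0.55 ± 0.12 with LPS at 5% and 0.74 ± 0.08 with LPS at 10% (adjusted p = 0.0333, 0.0244 and 5.26e-05), and by 0.32 ± 0.10 in basal cells at 10% (adjusted p = 0.0538). The shNR4A3 libraries were above the shNT ones in all 4 conditions, at 339, 301 and 339 against 217, 187 and 183 RPKM at 10% CO2 with LPS. The SPI1 call in basal cells ended without shNT replicate 2 or 3 or shNR4A3 replicate 1 (0.0733 to 0.156), and that with LPS at 5% CO2 without shNT replicate 2 or 3 or shNR4A3 replicate 1 or 3 (0.0843 to 0.0991). FLI1 was lower by -0.48 ± 0.10 at 10% CO2 with LPS (adjusted p = 0.00564).

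The numbers paired the libraries in all 4 shNR4A3 comparisons, and the block gave 3, 4, 6 and 5 calls, beside 13.0%, 13.5%, 18.7% and 24.9% of all genes. It added RUNX1 (-0.29) and SPI1 (0.32) in basal cells at 10% CO2. In stimulated cells at 5% CO2 it added RUNX1 (-0.22), ETS1 (-0.24), ETS2 (0.21), LMO2 (0.22) and FLI1 (-0.34), and at 10% RUNX1 (-0.16), ETS2 (0.17) and MYB (-0.23).

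**Figure D5:**
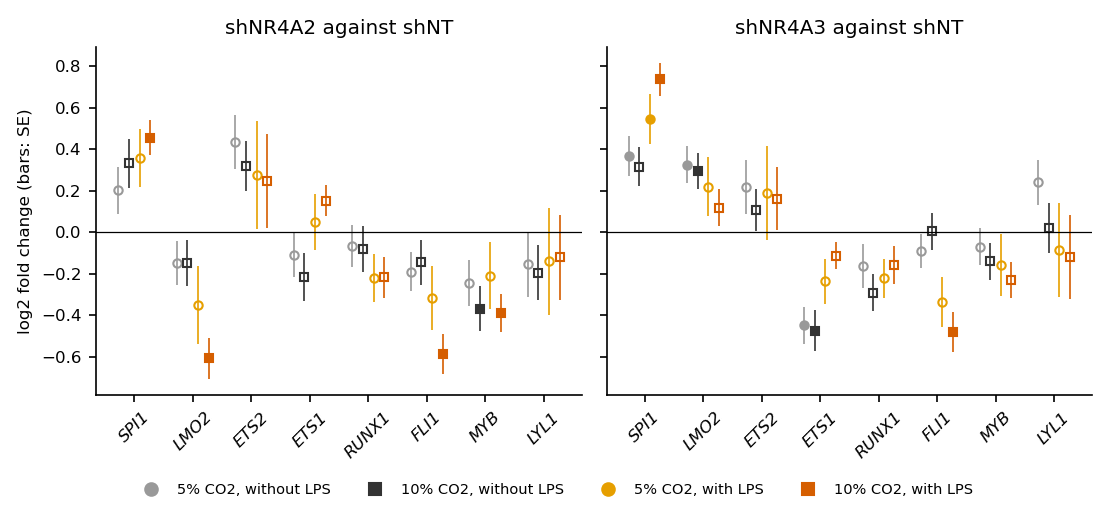
Log2 fold change of 8 genes in shNR4A2 (left) and shNR4A3 cells (right) against shNT cells in each of the 4 conditions (points: estimate, bars: standard error, filled points: adjusted p under 0.05, without the replicate block). SPI1 lies above 0 in all 8 comparisons, from 0.20 to 0.74, and ETS1 is at -0.45 and -0.47 in basal shNR4A3 cells.

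Averaged over conditions in the fit of all 36 libraries, 4 of the 9 genes were called for CO2, 8 for LPS and 6 for shNR4A2, beside 36.4%, 64.6% and 40.9% of all genes. For shNR4A3 the count was 6, beside 32.9% of all genes, but it includes TAL1, which is not read as a result. The genes called for CO2 were ETS1 (0.29 ± 0.04), FLI1 (-0.31 ± 0.05), LMO2 (-0.25 ± 0.06) and LYL1 (-0.28 ± 0.09). For shNR4A2 they were SPI1 (0.34 ± 0.06), ETS2 (0.32 ± 0.11), FLI1 (-0.31 ± 0.06), LMO2 (-0.31 ± 0.07), MYB (-0.30 ± 0.07) and RUNX1 (-0.15 ± 0.06), the last lost without any 1 of 13 libraries, all of shNT or shNR4A2 (adjusted p 0.0541 to 0.0972). For shNR4A3 they were SPI1 (0.49 ± 0.06), ETS1 (-0.32 ± 0.05), LMO2 (0.24 ± 0.07), FLI1 (-0.22 ± 0.06) and RUNX1 (-0.21 ± 0.06), beside TAL1, whose test is set by its filter as given above. For LPS the values were 1.85 ± 0.09 for ETS2, 0.72 ± 0.05 for SPI1, 0.34 ± 0.04 for ETS1, -0.15 ± 0.05 for RUNX1, -0.60 ± 0.05 for FLI1, -1.17 ± 0.06 for LMO2, -1.92 ± 0.06 for MYB and -2.15 ± 0.09 for LYL1.

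The relatives and partners of these genes were counted in the same averages, against those shares of all genes and a median of all genes between -0.01 and 0.00. Of 17 other ETS family genes tested, 5 rose and 5 fell with LPS (list median -0.01), and 7 fell and none rose at 10% CO2 (-0.14). ELK3, a ternary complex factor, was lower by -1.04 ± 0.10 with LPS and by -0.59 ± 0.10 at 10% CO2. In shNR4A2 and shNR4A3 cells 1 and 3 rose and 3 and 1 fell. FLI1 fell on this average too, while none of the 17 rose as ETS1 did.

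Of 6 other core-binding factor genes, 5 fell at 10% CO2 (median -0.27) and 1 rose and 5 fell with LPS (-0.70). RUNX3, a paralogue of RUNX1, was lower by -0.92 ± 0.12 at 10% CO2 and by -1.28 ± 0.12 with LPS. RUNX1 averaged 0.02 and -0.15, the former from CO2 effects of -0.21 without LPS and 0.25 with it. Of 12 other genes of the TAL1 and LMO2 complex, 3 rose and 8 fell with LPS (-0.44) and 3 rose and 3 fell at 10% CO2 (-0.01). GATA2, a partner of TAL1 and LMO2 in progenitors, was lower by -1.18 ± 0.09 with LPS, and CBFA2T3, a corepressor of the complex, by -1.15 ± 0.06. LDB1, the dimerising partner of LMO2, was lower by -0.68 ± 0.05 with LPS and by -0.29 ± 0.05 at 10% CO2.

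Among 14 other myeloid factors, 7 rose and 5 fell with LPS. NFE2, a bZIP factor of erythroid and megakaryocytic cells, was lower by -3.52 ± 0.11, and GFI1, a repressor needed for granulocytes, by -2.74 ± 0.10. In shNR4A2 cells 6 of them rose and 2 fell, and in shNR4A3 cells 8 rose and 3 fell (medians 0.19 and 0.39). Of 12 myeloid genes known as targets of SPI1 and RUNX1, 6 rose and 2 fell in shNR4A2 cells (0.24) and 6 rose and 1 fell in shNR4A3 cells (0.30). CSF1R, the receptor for macrophage colony-stimulating factor and a classical SPI1 target, was higher by 0.91 ± 0.09 and 1.14 ± 0.09. With LPS, where SPI1 also rose, 3 of the 12 rose and 5 fell. CYBB was higher by 0.80 ± 0.17 and CSF1R lower by -0.50 ± 0.07. The part of SPI1 in these values was not tested.

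Of 9 genes that respond to CO2 and for which the study proposed ETS1 as a regulator, 4 rose and 5 fell at 10% CO2. The study chose them on these same samples, so their CO2 calls are not independent evidence. With LPS 2 rose and 5 fell, and in shNR4A2 cells 1 rose and 4 fell. In shNR4A3 cells, where basal ETS1 was lower, 1 rose and none fell. The study also reported more ETS-1 protein in nuclei of untransformed THP-1 cells after a longer exposure to raised CO2. That is a different measure from the RNA levels given here.

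The patterns over the 36 libraries were compared with those of 13976 genes by Pearson's r of log2 CPM. These correlations are descriptions over libraries that share 12 conditions and, above all, the step between basal and LPS-stimulated cells. ETS2 was most like MCL1 and CSRNP1 (r = 0.98 for both), LYL1 like CEBPA (0.99) and TMEM229B (0.98), and MYB like ZFP69 and SNX18 (0.99 for both). LMO2 was most like OTULINL (0.98) and MOAP1 (0.97), FLI1 like GLCCI1 (0.98) and MTM1 (0.97), and SPI1 like P2RX4 and SLC43A2 (0.93 for both). RUNX1 and ETS1 had no partner as close, with KANSL1 and LMTK2 at 0.86 for RUNX1 and SYNM (0.83) and FZD3 (0.81) for ETS1. Between the factors themselves, LMO2 and FLI1 had an r of 0.91 over all libraries and 0.88 after the mean of each condition was removed. ETS2 and MYB had an r of -0.96 over all libraries and -0.37 within conditions, and LYL1 and MYB 0.96 and 0.36.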

How the data were processed

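RNA was measured in 36 THP-1 libraries, 3 in each of 12 conditions taken from the sample records. Libraries were prepared from poly(A) RNA and sequenced by a company (GeneWiz). Per the labels and the study's methods, reads passed through Trimmomatic 0.36 and STAR 2.5.2b (genome GRCh38), and featureCounts (Subread 1.5.2) assigned them to genes. The deposited counts are whole numbers without normalization. Not given in the sources used here are the strand setting, the annotation release, and the choice between reads and fragments. Symbols were matched by gene ID for 56410 genes (98.1%), from an annotation that may be of another release.

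The 10 genes, and the lists of their relatives, partners and targets, were chosen with earlier results of these data known. Outside the 10, a list gene was named only if it was among the 4 with the largest average effect in its list, and the targeted genes and the 2 genes most like each factor were named as well. RPKM used the gene lengths in the files and TMM-scaled library sizes. Genes passing edgeR's filterByExpr (minimum count 10, minimum total 15) over all libraries, 17720 in all, were tested in each comparison on its own libraries with edgeR 4.0.16's quasi-likelihood F test (robust, TMM, R 4.3.3) and Benjamini-Hochberg adjustment over these genes. Tests are two-sided and errors beside a log2 fold change are standard errors. Statements that groups did not overlap describe the libraries of the named genes, and the share of all genes that did so was not counted. Averages over conditions used 1 fit of 36 libraries with 12 group means. The tests were first tried on simulated data.

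The pairing of replicate numbers was checked on 9383 genes with a mean of at least 10 CPM, as the correlation of same-numbered libraries after the group means were removed. Every number passed 0.1 in 5 of 6 LPS comparisons (all but shNT at 5% CO2), 1 of 6 CO2 comparisons (basal shNR4A2), 3 of 4 shNR4A2 and 4 of 4 shNR4A3 comparisons. No source says what the numbers stand for. Alternatives were the replicate block, DESeq2 1.42.0 (the test the authors used), RLE size factors, library size alone, no filter, a filter at 1 CPM, 1 fit for all libraries, stricter thresholds, and leaving out libraries. Averaging the CO2-by-LPS difference over lines, and leaving 1 replicate number out of every condition, were added after values had been seen. Counts of same-group replicates differed by more than sampling noise (chi-square per degree of freedom 6.71 to 29.6), so none was the same library resequenced. Whether any replicates were separate preparations of the same RNA or culture cannot be told from this.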

Additional observations from a re-analysis of the deposited data

Results flagged for a closer look

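In 5 of the genes the CO2 response differed between LPS-stimulated and basal cells when the 3 lines were averaged, by a test of the difference itself that was added after the values of each line had been seen. The difference on the log2 scale, with minus without LPS, was 0.46 for RUNX1, 0.45 for ETS1, -0.44 for FLI1, -0.42 for MYB and -0.41 for LMO2. In each of these genes all 3 lines had the same sign. Without replicate 2 of every condition none of the 5 was called: RUNX1 and ETS1 were at 0.42 and 0.45 (adjusted p = 0.0764 and 0.166), and FLI1, LMO2 and MYB between -0.27 and -0.17. RUNX1 was not called without replicate 1 or 3 of every condition either (0.0529 and 0.0751), nor was any of the others without replicate 1. The call of MYB ended without any 1 of 10 libraries, all of replicate number 1 or 2 (adjusted p 0.0524 to 0.0664), and that of LMO2 without any 1 of 25 of the 36 libraries (0.0521 to 0.0977). The calls of RUNX1, ETS1 and FLI1 held when any 1 library alone was left out.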

How the results depend on the processing

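The 41 LPS calls stayed between 36 and 43 under every alternative setting, and between 35 and 42 when libraries were left out. For CO2 the 3 calls became 1 at an adjusted p of 0.01, 1 with a fold of 1.4, 11 with DESeq2, 15 without a filter, 7 in one fit and 6 with the replicate block. The 5 shNR4A2 calls became 3 at 0.01, 2 with the fold, 10 without a filter and 18 with the block, and the 8 shNR4A3 calls became 4, 2, 5 in one fit and 18 with the block. The block raised LPS calls to 43 and left basal cells at 10% CO2 with 1 shNR4A2 call, beside 11.9% of all genes. Among comparisons not paired by number it added FLI1 for LPS in shNT cells at 5% CO2 (adjusted p = 0.0127), ETS1 (0.0154) and FLI1 (0.033) for CO2 in stimulated shNR4A2 cells and MYB (0.0155) in basal shNR4A3 cells. Over the averages it added ETS2 for CO2 and for shNR4A3.

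For LPS by line, 0 calls became 2 with the block, and for CO2 by LPS state 0 became 2 without a filter and 5 averaged over lines, also with the block. The 24 average calls, which include that of TAL1 for shNR4A3, became 8 with the fold. With libraries left out, the counts ran from 0 to 6 for CO2, 1 to 8 for shNR4A2, 2 to 9 for shNR4A3, 21 to 26 for the averages and stayed at 0 for the differences of responses. Of single values, 2516 kept direction and side of the threshold, 187 lost and 95 gained a call, and 1 turned: RUNX1 with LPS in shNR4A3 cells at 10% CO2 was -0.022 by library size alone. The cause of these shifts was not tested. The few counts of TAL1 and MEIS1 limit both genes to detection only.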

Other observations

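MEIS1 itself was not measurable here, but its family and the HOXA genes were. Of 20 other genes of the HOXA, MEIS and PBX list that were tested, 3 rose and 12 fell with LPS on average over the 36 libraries, beside 64.6% of all genes called (list median -0.24). HOXA13, the most posterior gene of the cluster, was lower by -1.90 ± 0.05, with medians of 10.8 RPKM in basal and 2.53 RPKM in LPS-stimulated libraries that ran from 8.31 to 13.5 and from 2.02 to 4.50 RPKM without overlap. At 10% CO2, 3 rose and 5 fell, beside 36.4% of all genes called, and PBX4 was lower by -0.74 ± 0.11 and MEN1, the menin scaffold of KMT2A complexes, higher by 0.39 ± 0.06.

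Of 5 genes known as MYB targets, 1 rose and 3 fell with LPS, where MYB fell, beside the same 64.6% of all genes. MYC was lower by -2.42 ± 0.07, with 61.7 to 117 RPKM in basal and 10.8 to 28.8 RPKM in stimulated libraries, and KIT, the receptor for stem cell factor, had medians of 2.15 RPKM in basal and 1.06 RPKM in stimulated libraries (adjusted p = 5.93e-11). CD34 was the one that rose, but its highest library reached 0.481 RPKM. In shNR4A2 cells, where MYB averaged -0.30, 1 rose and 3 fell, beside 40.9% of all genes, and KIT was lower by -1.19 ± 0.12. Of 4 relatives and coactivators of MYB, 3 fell at 10% CO2 (36.4% of all genes called) by -0.19 to -0.17, and MYBL2 was among them (-0.17 ± 0.05).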
